A study of Mus musculus with 48 samples.

Results

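A set of 10 genes that mark intestinal stem cells or respond to Wnt signalling was followed in the mouse colon, with and without the circadian clock of the epithelium. The genes are *Lgr5*, *Lrig1*, *Smoc2*, *Ascl2*, *Axin2*, *Sox9*, *Ephb2*, *Rnf43*, *Znrf3* and *Nkd1*, chosen by symbol as 10 of the 55401 genes in the deposited count table. Bulk RNA of colon tissue was sequenced from 48 male mice of 18 to 20 weeks on a C57BL/6J background, killed after more than a day without light at circadian times (CT) 1, 5, 9, 13, 17 and 21 h, with 4 mice of each genotype at each time. *Bmal1* IEC-/- mice carry *Bmal1* fl/fl alleles and a Cre recombinase driven by the Villin promoter, which is active in intestinal epithelial cells. Control mice are littermates with the same *Bmal1* fl/fl alleles and no Cre, so floxed alleles were present in both genotypes. The clock gene was thus deleted in the epithelium and left intact in the fibroblasts, muscle, nerves and immune cells of the same tissue.

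Wnt ligands bind Frizzled receptors and LRP5 or LRP6 on the cell surface, which protects β-catenin from the destruction complex and lets it switch on target genes together with TCF/LEF factors. R-spondins raise this signal by binding LGR receptors and so removing RNF43 and ZNRF3, a pair of ubiquitin ligases that take Frizzled receptors off the membrane. In the colon the signal is strongest at the base of the crypts, where stem cells divide, and it fades towards the lumen.

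Gene counts summed to 3144997 to 4785844 per mouse. All 10 genes passed the low-count filter, and none had a count of 0 in any mouse. The deleted gene, listed as *Arntl*, ranged from 15.8 to 283 normalized counts (counts divided by DESeq2's size factor of the mouse) in control mice and from 84.9 to 180 in *Bmal1* IEC-/- mice, and its count also takes in cells of the tissue that do not carry Cre activity. Its level over the day did not pass (log2 fold change 0.32, edgeR adjusted p = 0.241), and every *Bmal1* IEC-/- mouse was above every control mouse at CT9 and CT13 and below at CT1 and CT21. Its log2 amplitude was 1.76 in controls and 0.24 in *Bmal1* IEC-/- mice (edgeR adjusted p of the changed rhythm 5.05e-13). *Nr1d1*, a direct target of BMAL1, was lower in *Bmal1* IEC-/- mice (log2 fold change -1.48, standard error 0.12, edgeR adjusted p = 2.39e-13) and rhythmic in both genotypes, with log2 amplitudes of 2.37 and 2.30 (edgeR adjusted p of the changed rhythm 0.985). Markers of colonocytes summed to between 35303 and 56261 normalized counts per mouse, and no gene of the epithelial, colonocyte or goblet cell lists was at 0. Main results rest on 46 mice (24 control, 22 *Bmal1* IEC-/-), without *Bmal1* IEC-/- mice SV384 and SV385 at CT1. No source names this pair. It was inferred to be absent from the study's own analysis, because the mean normalized counts the study gives per gene fit the deposited counts with this pair left out and with no other pair. These mice lay at the edge of their group for some of the genes, with 17.2 and 25.5 normalized counts of *Lgr5* against 32.5 and 73.4 in the other CT1 mice of that genotype. For *Arntl* the pair left out had 105 and 97.2 normalized counts. The CT1 mice kept had 171 and 180, above every other *Bmal1* IEC-/- mouse. Results are also given with the pair included.

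Levels were first compared between genes as normalized counts per kilobase of exon, since longer transcripts yield more reads. *Lrig1*, a cell surface inhibitor of ErbB receptors that marks a population of stem cells, had the highest level at 97.1 ± 7.43 (SD, n = 24) per kb in control mice. *Sox9* followed at 33.9 ± 6.10 per kb, *Rnf43* at 27.8 ± 4.24, *Ephb2* at 24.3 ± 3.23 and *Axin2* at 18.9 ± 3.39. The lower end held *Nkd1* at 15.8 ± 2.23 per kb, *Smoc2* at 14.7 ± 2.25, *Ascl2* at 8.51 ± 4.41, *Znrf3* at 7.996 ± 1.51 and *Lgr5* at 4.29 ± 1.38. The lowest control mouse for *Lrig1* (80.6 per kb) was above the highest for *Sox9* (44.8 per kb), whereas every other pair of neighbours in this order overlapped between mice. The order of the 10 genes was the same in *Bmal1* IEC-/- mice, in which *Lrig1* had 91.5 ± 9.43 (SD, n = 22) and *Lgr5* 3.62 ± 1.28 normalized counts per kb. Precision differed between the genes. Among mice of the same genotype and time, *Lrig1* varied by 8.17% of its mean where counting error alone gives 4.30%, *Lgr5* by 29.1% against 15.5%, and *Ascl2*, with 15.3 counts per mouse on average, by 44.0% against 25.6%. *Ephb2* varied by 14.2% against 5.65% and *Sox9* by 15.2% against 8.34%, more than *Smoc2* (11.2% against 10.1%) and *Nkd1* (11.7% against 11.9%), which have fewer counts.

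**Figure D1:**
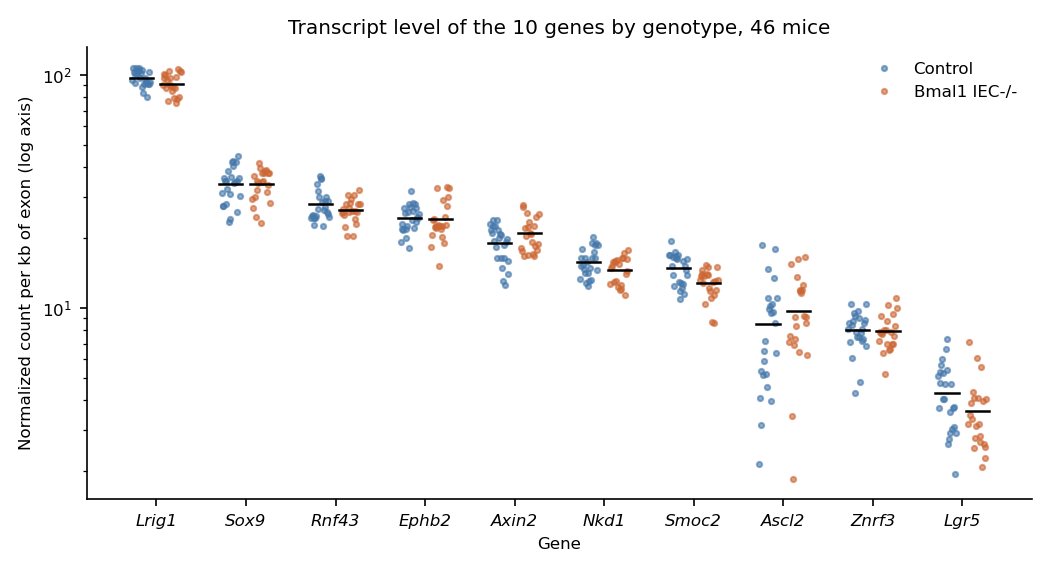
Normalized counts per kb of exon (log axis) of each of the 10 genes, 1 point per mouse, in 24 control and 22 *Bmal1* IEC-/- mice, with a bar at the mean. *Lrig1* lies above the other genes in both genotypes, *Lgr5* has the lowest mean, and *Ascl2* spreads most widely.

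The comparison of genotypes asked whether the level of these genes over the whole day differed in mice without an epithelial clock. *Smoc2* was the 1 gene of the 10 that passed the test, and it was lower in *Bmal1* IEC-/- mice. In the fit of genotype and circadian time (edgeR quasi-likelihood test, Benjamini-Hochberg adjustment over 14475 genes), 11.1% of all genes passed in either direction and 5.64% were lower, so 1 of 10 is near the background. The median log2 fold change was -0.07 over the 10 genes and 0.00 over all genes tested. Without adjustment, 4 of the 10 genes had a p under 0.05, as did 24.2% of all genes. These p-values measure the spread between mice, each sampled once.

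*Smoc2* (ENSMUSG00000023886.10, GRCm38 chromosome 17, 14279506 to 14404790, plus strand) encodes a secreted calcium-binding matrix protein and is a marker of LGR5-positive crypt base cells. Control mice had a lowest value of 75.7, a median of 105 and a highest of 134 normalized counts. In *Bmal1* IEC-/- mice the lowest was 59.6, the median 90.6 and the highest 106. The ranges overlapped, with the highest *Bmal1* IEC-/- mouse just above the control median. The fold change was 0.873 (95% interval 0.811 to 0.940), or -0.20 on the log2 scale with a standard error of 0.05 (edgeR adjusted p = 0.0101). At every time but CT13 the mean was lower without the epithelial clock (5 of 6 times). At CT9 the control mice had 113, 114, 116 and 116 normalized counts and the *Bmal1* IEC-/- mice 72.3, 97.1, 104 and 106, so that every control mouse was above every *Bmal1* IEC-/- mouse. The share of all genes separated in this way at a single time was not counted. In RNA of a whole tissue, fewer cells of a type and less RNA per cell cannot be told apart.

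Markers of other cells moved between the genotypes as well. The 6 fibroblast markers summed to a median of 5237 (3779 to 6362) normalized counts in controls and 4661 (3355 to 6626) in *Bmal1* IEC-/- mice, and 1 of them, *Dcn*, fell by 0.22 on the log2 scale (edgeR adjusted p = 0.00836). The 8 epithelial markers summed to a median of 23572 (18972 to 28828) in controls and 24670 (22446 to 31213) in *Bmal1* IEC-/- mice, with 4 genes higher and 1 lower. None of the 6 proliferation markers passed the edgeR test, with 0 at an unadjusted p under 0.05, and their sum had medians of 1482 and 1571. Of the other lists, 2 of 6 smooth muscle, 2 of 5 colonocyte and 1 of 4 glial and neuronal markers were lower, goblet cell markers split with 2 higher and 2 lower of 5, and of 4 immune markers and 1 tested pancreas gene none passed in edgeR, with 1 and 0 at an unadjusted p under 0.05. At that threshold 6 of 6 smooth muscle and 3 of 4 glial and neuronal markers were lower. The counts were 6 of 8 for epithelial, 2 of 6 for fibroblast, 2 of 5 for colonocyte and 4 of 5 for goblet cell markers, beside 24.2% of all genes. Smooth muscle markers summed to a median of 17991 normalized counts in controls and 15706 in *Bmal1* IEC-/- mice. The other 3 pancreas genes had 1 to 3 counts over all 46 mice, and no marker gene was at 0 in all of them. The part of these cells in the *Smoc2* difference was not tested. The scalings that follow change the scaling factor of each mouse for all genes alike, so they are no such test. With counts scaled to the summed fibroblast markers, the log2 fold change of *Smoc2* was -0.05 (edgeR adjusted p = 0.626). That scaling moved the median of all genes to 0.163, and relative to this median *Smoc2* stood at -0.21. Scaled to the epithelial markers it was -0.28 (edgeR adjusted p = 3.67e-04), or -0.20 relative to a median of all genes of -0.0809. The share of all genes called was 29.4% with the fibroblast scaling (1.11% lower) and 14.6% with the epithelial scaling (13.1% lower), beside 11.1% (5.64% lower) without them. Without the low-count filter the adjusted p was 0.0526.

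*Lgr5* (ENSMUSG00000020140.15, chromosome 10, 115450311 to 115587780, minus strand), the R-spondin receptor that defines crypt base stem cells, had a control range of 19.9 to 75.2 and a median of 41.7 normalized counts. *Bmal1* IEC-/- mice ranged from 21.2 to 73.4 with a median of 33.3, and the groups overlapped almost entirely. The log2 fold change was -0.21 (95% interval -0.45 to 0.04, edgeR adjusted p = 0.316). *Lrig1* (ENSMUSG00000030029.14, chromosome 6, 94604529 to 94700158, minus strand) had a median of 541 (450 to 599) in controls and 505 (423 to 590) in *Bmal1* IEC-/- mice. Its log2 fold change was -0.08 with an interval of -0.16 to -0.01 (edgeR adjusted p = 0.138). *Ascl2* (ENSMUSG00000009248.6, chromosome 7, 142966829 to 142969264, minus strand), a transcription factor that maintains stem cell identity, had medians of 12.8 and 14.9. With 3 to 34 counts per mouse its interval was wide, from -0.22 to 0.49 around a log2 fold change of 0.13 (edgeR adjusted p = 0.704). Stem cell markers thus differed in sign, and *Smoc2* alone passed.

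Among the direct targets, *Axin2* (ENSMUSG00000000142.15, chromosome 11, 108920349 to 108950783, plus strand) encodes a scaffold of the destruction complex and is widely used as a readout of Wnt signalling, which it also dampens. Control mice had between 68.8 and 131 normalized counts (median 108), and *Bmal1* IEC-/- mice between 92.0 and 152 (median 113). Most mice overlapped, but the lowest control mice had no counterpart in the other genotype. The log2 fold change of 0.15 (95% interval 0.02 to 0.29) did not pass after adjustment (edgeR adjusted p = 0.141). With counts scaled to the fibroblast markers it was 0.30 (edgeR adjusted p = 7.32e-04), and scaled to the epithelial markers 0.0618 (edgeR adjusted p = 0.615). Relative to the median of all genes it was 0.14 under both scalings. *Sox9* (ENSMUSG00000000567.5, chromosome 11, 112782224 to 112787760, plus strand), a crypt transcription factor, had a median of 144 normalized counts in both genotypes and a log2 fold change of -0.02 (interval -0.16 to 0.12, edgeR adjusted p = 0.911). *Ephb2* (ENSMUSG00000028664.14, chromosome 4, 136647539 to 136835988, minus strand), a receptor kinase that keeps cells in place along the crypt, had medians of 307 and 284 and a log2 fold change of -0.05 (interval -0.17 to 0.08, edgeR adjusted p = 0.707).

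*Nkd1*, *Rnf43* and *Znrf3* also dampen the pathway. Their log2 fold changes were below 0, unlike that of *Axin2* (0.15), and *Znrf3* was near 0 at -0.01. With counts scaled to the fibroblast markers, the values of *Nkd1*, *Rnf43* and *Znrf3* were above 0. Of *Nkd1*, *Rnf43* and *Znrf3*, none passed the main edgeR test, and *Nkd1* alone had an unadjusted p under 0.05. *Nkd1* (ENSMUSG00000031661.12, chromosome 8, 88521354 to 88594884, plus strand), which binds Dishevelled, had a median of 70.3 (56.4 to 91.7) in controls and 68.0 (51.6 to 80.5) normalized counts in *Bmal1* IEC-/- mice. Its log2 fold change was -0.12 (interval -0.23 to -0.01, edgeR adjusted p = 0.172). *Rnf43* (ENSMUSG00000034177.15, chromosome 11, 87662722 to 87735539, plus strand) had medians of 173 and 170 and a log2 fold change of -0.09 (interval -0.21 to 0.02, edgeR adjusted p = 0.323). *Znrf3* (ENSMUSG00000041961.14, chromosome 11, 5276324 to 5444847, minus strand), its close relative, had medians of 64.0 and 61.8 and a log2 fold change of -0.01 (interval -0.17 to 0.15, edgeR adjusted p = 0.974). The intervals of *Sox9*, *Ephb2*, *Rnf43* and *Znrf3* reached no further than -0.21 and 0.15 on the log2 scale. By DESeq2 the count was also 1 of 10. Scaled to the fibroblast markers, *Sox9*, *Ephb2*, *Rnf43*, *Znrf3*, *Lrig1* and *Nkd1* had fold changes above 0, all below the median shift of 0.163. Scaled to the epithelial markers, 4 genes passed, *Smoc2*, *Rnf43*, *Lrig1* and *Nkd1*, all lower, where 13.1% of all genes were lower. Relative to the median of all genes under that scaling, *Rnf43* stood at -0.10, *Lrig1* at -0.09 and *Nkd1* at -0.13.

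**Figure D2:**
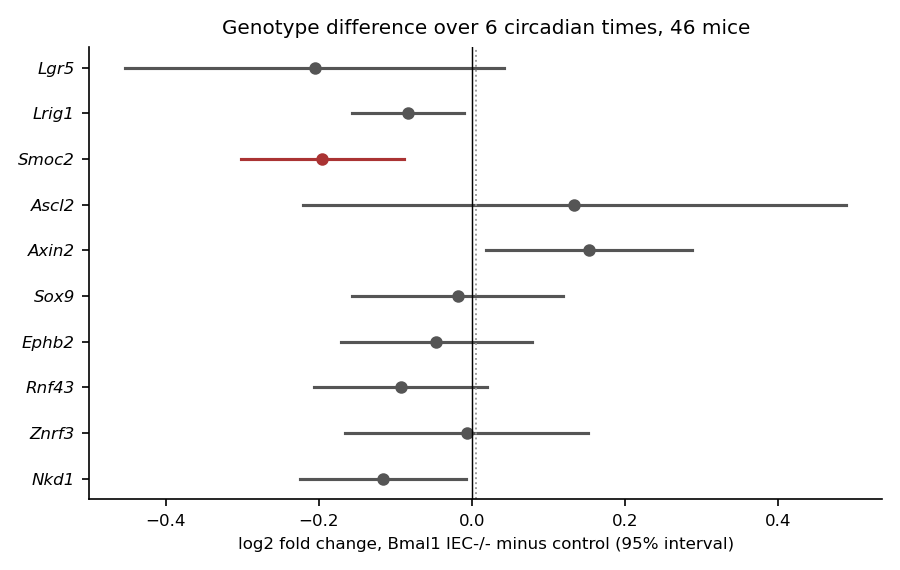
log2 fold change (*Bmal1* IEC-/- minus control) of the 10 genes with its 95% interval from the edgeR fit of genotype and circadian time over 46 mice, red where the adjusted p is under 0.05; the dotted line is the median of all genes. *Smoc2* at -0.20 is the one that passed, and 8 of the 10 points lie below 0.

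Of 99 other genes of the pathway and of the crypt, 67 were tested. The symbols *Tcf7*, *Tcf7l2* and *Myc* were matched to no gene of the deposited counts, so their levels were not assessed. The others left untested had too few counts. With the clock deleted, 2 of the 67 tested genes were higher and 4 lower, 6 of 67 beside 11.1% of all genes. Their median log2 fold change was -0.03. Of the 19 Wnt ligands 5 were tested and none passed in edgeR or had an unadjusted p under 0.05. Among the secretion genes, *Wls*, the carrier that brings Wnt proteins to the cell surface, had a median of 565 normalized counts in controls and 608 in *Bmal1* IEC-/- mice (log2 fold change 0.10, edgeR adjusted p = 0.0656), and *Porcn*, which attaches the lipid that Wnt proteins need, had 27.6 and 27.3 (-0.09, edgeR adjusted p = 0.638). *Rspo3* was the 1 R-spondin of 4 with enough counts. This amplifier of Wnt signalling had a median of 16.5 (5.97 to 32.6) normalized counts in controls and 13.2 (6.09 to 19.9) with the clock deleted. The difference passed the test at -0.40 on the log2 scale, with a standard error of 0.14 (edgeR adjusted p = 0.0487). The ranges overlapped, and the higher control values had no match in the other genotype.

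Of the 17 receptors 15 were tested. *Lgr4*, the relative of *Lgr5* found along the whole crypt, had a median of 553 in controls and 545 normalized counts in *Bmal1* IEC-/- mice (log2 fold change 0.01, edgeR adjusted p = 0.963). *Fzd10*, a Frizzled receptor, was higher at 8.88 (1.75 to 15.2) against 5.46 (1.73 to 16.3) normalized counts (log2 fold change 0.68, standard error 0.19, edgeR adjusted p = 0.0130). *Ror1*, a receptor for WNT5A, was lower at 30.5 (17.6 to 39.7) against 39.9 (28.2 to 54.8), a fall of 0.47 (standard error 0.09, edgeR adjusted p = 3.00e-04). Inside the cell, *Apc*, the tumour suppressor of the destruction complex, had 542 (351 to 629) against 596 (444 to 744) and fell by 0.16 (standard error 0.06, edgeR adjusted p = 0.0454). *Tcf7l1*, a TCF factor that mostly represses, had 72.6 (54.8 to 106) against 51.0 (24.5 to 87.3) and rose by 0.47 (standard error 0.08, edgeR adjusted p = 1.65e-05). *Rgmb*, a BMP co-receptor found at the crypt base, had 484 (409 to 631) against 562 (419 to 649) and fell by 0.17 (standard error 0.04, edgeR adjusted p = 0.00398). For each of these genes the genotypes overlapped. None of the 8 tested secreted and surface inhibitors passed (1 at an unadjusted p under 0.05), nor did any of the 5 other targets (also 1), while 1 of 14 cytoplasmic, 1 of 5 nuclear and 1 of 12 other stem and crypt genes did. *Rspo3* and *Ror1* are expressed by stromal cells of the gut, and the fibroblast sums are given beside *Smoc2*; their part in these differences was not tested.

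**Figure D3:**
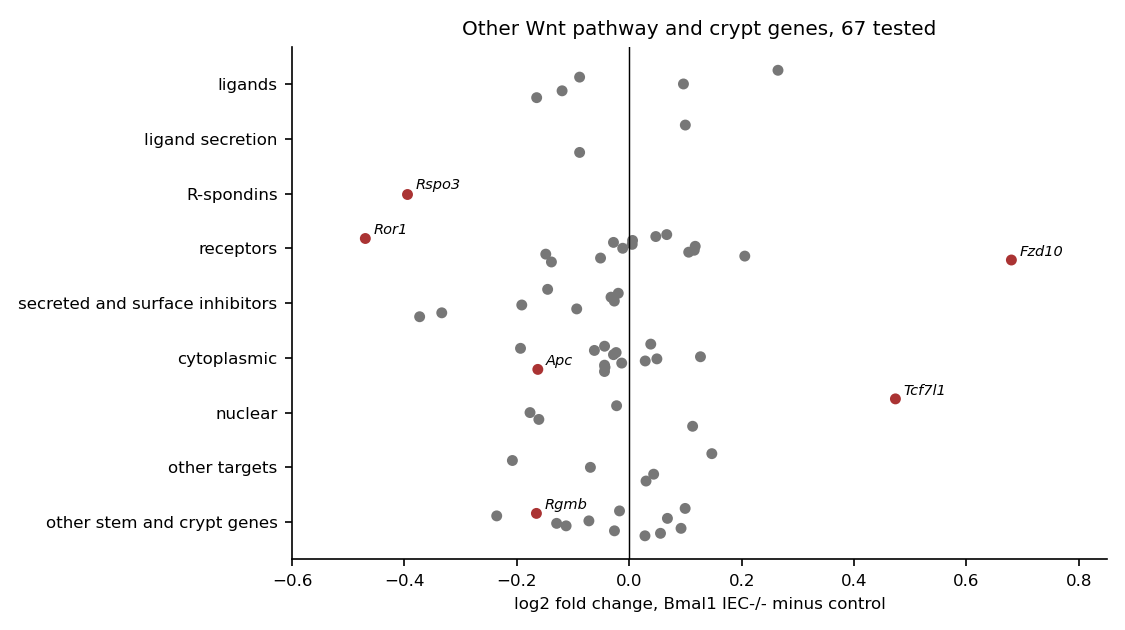
log2 fold change (*Bmal1* IEC-/- minus control) of 67 other Wnt pathway and crypt genes by role, 1 point per gene, red and named where the edgeR adjusted p is under 0.05. *Fzd10* and *Tcf7l1* lie to the right, and *Ror1*, *Rspo3*, *Apc* and *Rgmb* to the left.

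At single circadian times, with 4 mice per genotype (2 *Bmal1* IEC-/- mice at CT1), none of the 60 contrasts of a gene and a time passed the edgeR test, and 10 had an unadjusted p under 0.05. Over all genes 1.51% passed after adjustment at CT1, 0.456% at CT5, 1.82% at CT9, 4.72% at CT13, 1.11% at CT17 and 0.394% at CT21. Shares of all genes by unadjusted p were not counted at single times, so the 10 stands without a background. With all mice none passed either, and the smallest adjusted p belonged to *Smoc2* at CT1 (log2 fold change -0.31, edgeR adjusted p = 0.0584). *Ascl2* at CT1 followed (1.22, edgeR adjusted p = 0.0630). With the CT1 pair left out, *Smoc2* at CT1 had -0.35 (edgeR adjusted p = 0.232). Among contrasts without that pair, the smallest adjusted p belonged to *Lgr5* at CT9, which had 0.199 with all mice. Its control mice then had 41.8, 48.4, 68.5 and 75.2 normalized counts and its *Bmal1* IEC-/- mice 25.6, 28.2, 31.8 and 42.0. One *Bmal1* IEC-/- mouse reached just past the lowest control mouse and the rest lay below (log2 fold change -0.86, standard error 0.27, edgeR adjusted p = 0.1095). At CT5 the *Lgr5* difference was -0.49 (edgeR adjusted p = 0.861), and at CT13, CT17 and CT21 it lay between -0.03 and 0.17. At CT1 it was 0.13 with 2 *Bmal1* IEC-/- mice and -0.36 with all 4, so its sign there rested on which mice were used.

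*Ephb2* differed in sign between times of the night. At CT13 the *Bmal1* IEC-/- mice had 253, 275, 282 and 282 normalized counts, all below the control mice at 299, 329, 340 and 401. At CT21 they had 344, 375, 413 and 416, all above the control mice at 306, 308, 317 and 337. Neither contrast passed after adjustment (log2 fold change -0.33, edgeR adjusted p = 0.188 at CT13, and 0.28, edgeR adjusted p = 0.590 at CT21). How often the genotypes do not overlap at a single time over all genes was not counted. *Axin2* at CT1 had 96.8 and 99.6 normalized counts in the 2 *Bmal1* IEC-/- mice, 103 and 103 in the pair left out, and 116, 119, 123 and 126 in control mice, so that the genotypes did not overlap with either set (edgeR adjusted p = 0.438, and 0.195 with all mice). At the 5 later times the *Axin2* mean was higher in *Bmal1* IEC-/- mice, by up to 0.32 on the log2 scale at CT21 (edgeR adjusted p = 0.590). *Sox9* was 0.33 at CT9 and -0.32 at CT13 (edgeR adjusted p = 0.423 and 0.263), and the mice overlapped at both times. *Ascl2* showed its largest value at CT1, 0.96, from 3 to 8 counts per control mouse and 11 to 12 per *Bmal1* IEC-/- mouse (edgeR adjusted p = 0.432). With all mice this value was 1.22 (edgeR adjusted p = 0.0630).

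**Figure D4:**
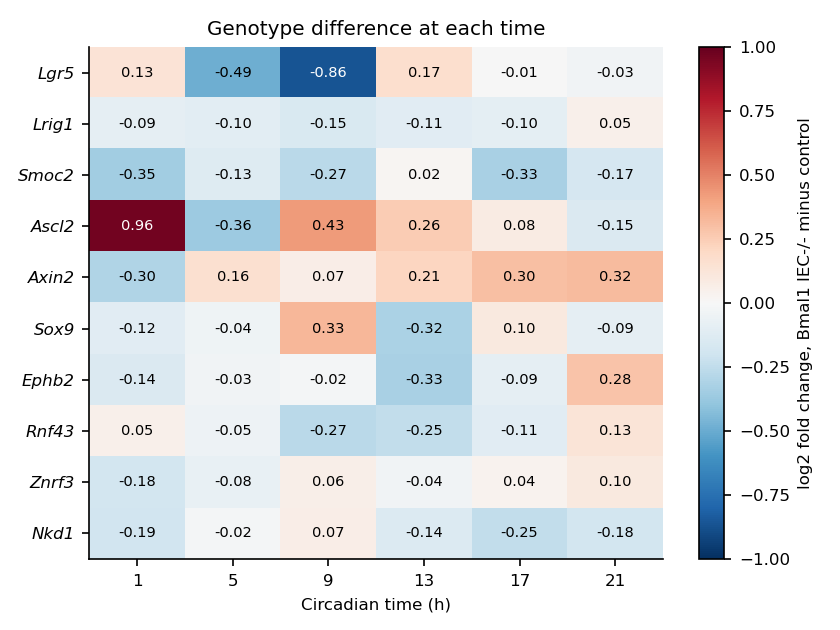
log2 fold change (*Bmal1* IEC-/- minus control, printed in each cell and shown by colour) of the 10 genes at each circadian time in h, from edgeR contrasts over 46 mice. *Lgr5* reaches -0.86 at CT9, *Ephb2* goes from -0.33 at CT13 to 0.28 at CT21, and no cell passed an adjusted p of 0.05.

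Rhythms were tested in each genotype with JTK_cycle, a rank test for a period of 24 h with an exact null distribution. In control mice 6 of the 10 genes had a p, adjusted for the phases tried, under 0.05, where 24.1% of all genes with a count and 50% of those kept by the low-count filter did. The exact JTK_cycle p printed below is this adjusted p, which is capped at 1. A value at the cap does not show that a gene lacks a rhythm. A peak here is the phase of the best JTK_cycle pattern and need not be the time of the highest mean. *Lgr5*, *Axin2*, *Smoc2* and *Lrig1* peaked in the circadian day, *Nkd1* late in the night and *Rnf43* at CT13. In *Bmal1* IEC-/- mice 1 of 10, *Smoc2*, had a p under 0.05, where 14.2% of genes with a count and 29.3% of those kept by the filter did. A rhythm found in one genotype and not in the other is not a tested difference, and the direct test of a changed rhythm passed for 0 of 10 genes (edgeR, 0.94% of all genes), with 1 at an unadjusted p under 0.05. DESeq2 also gave 0. For the changed rhythm the share of all genes with an unadjusted p under 0.05 was not counted.

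*Nkd1* and *Axin2* had the same p in control mice (0.00367) and peaked in different parts of the day. *Axin2* had its JTK_cycle peak at CT7, between sampled times, and *Nkd1* at CT21. Means of *Axin2* ran from 121 ± 4.72 (SD, n = 4) normalized counts at CT1 down to 82.9 ± 15.6 at CT17. Those of *Nkd1* ran from 62.6 ± 6.78 at CT9 up to 82.9 ± 7.58 at CT17. The mice at the extremes of each gene did not overlap, from 68.8 to 102 against 116 to 126 for *Axin2* and from 56.4 to 71.5 against 74.3 to 91.7 for *Nkd1*. These times were picked as the highest and lowest means of the same values, so this separation is no test of a rhythm. In *Bmal1* IEC-/- mice the JTK_cycle p of both genes, adjusted for the phases, was at its cap of 1. *Axin2* means there ran from 98.2 ± 1.95 (SD, n = 2) at CT1 to 129 ± 28.3 (n = 4) at CT5, and *Nkd1* means from 59.2 ± 7.55 (n = 4) at CT13 to 70.8 ± 7.83 (n = 4) at CT21. The change of rhythm did not pass for *Axin2* (edgeR adjusted p = 0.764) or *Nkd1* (edgeR adjusted p = 0.712).

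*Lgr5* rose through the day in control mice, from 48.4 ± 7.17 (SD, n = 4) normalized counts at CT1 to 58.5 ± 15.9 at CT9, and stood at 29.9 ± 7.62 at CT21 (exact JTK_cycle p = 0.0123, peak CT9). In *Bmal1* IEC-/- mice the means from CT5 to CT21 lay between 29.4 and 41.4, and the CT1 mean of 52.9 came from mice at 32.5 and 73.4. With SV384 and SV385 included the CT1 mean was 37.1 ± 24.97 (SD, n = 4). The fitted log2 amplitude was 0.44 in controls and 0.07 in *Bmal1* IEC-/- mice, and this difference did not pass (edgeR adjusted p = 0.566). *Smoc2* had its JTK_cycle peak at CT5 in both genotypes. In control mice its mean at CT5 was 104 ± 15.8, below the means at CT1 and at CT9 (115 ± 1.68). Its control means ran from 118 ± 12.1 (SD, n = 4) at CT1 to 83.8 ± 6.39 at CT13 (exact JTK_cycle p = 0.00296), and its *Bmal1* IEC-/- means from 95.7 ± 5.11 (SD, n = 4) at CT5 to 72.2 ± 14.9 at CT17 (exact JTK_cycle p = 0.0386). The log2 amplitudes were 0.20 and 0.17. The fibroblast markers were also higher by day in control mice, with a summed mean of 5706 ± 607 (SD, n = 4) at CT5 and 4330 ± 526 at CT13, and their part in the *Smoc2* rhythm was not tested.

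*Rnf43* gave the smallest p for a change of rhythm. Control means rose from 161 ± 2.75 (SD, n = 4) normalized counts at CT1 to 204 ± 27.9 at CT9 (exact JTK_cycle p = 0.0303, peak CT13), while *Bmal1* IEC-/- means stayed between 167 and 186 at all 6 times (exact JTK_cycle p = 1). With SV384 and SV385 included the *Bmal1* IEC-/- mean at CT1 was 159 ± 9.70 (SD, n = 4). The amplitudes were 0.17 and 0.05 on the log2 scale (edgeR adjusted p = 0.392). The summed epithelial markers of control mice were 19977 ± 933 (SD, n = 4) normalized counts at CT1, 26299 ± 2177 at CT9 and 25659 ± 1764 at CT13. With counts scaled to them the exact JTK_cycle p of *Rnf43* in control mice was 1. Because the divisor itself moved with time, this scaling can remove a rhythm or add one. The part of epithelial content in the *Rnf43* rhythm was not tested. Under this scaling *Lgr5* had an exact JTK_cycle p of 0.0583 in control mice, and 6 of the 10 genes passed beside 58.6% of genes kept by the filter (2 of 10 beside 22.5% in *Bmal1* IEC-/- mice). *Lrig1* had a shallow rhythm in control mice, with a highest mean 1.13 times the lowest, 575 ± 17.7 (SD, n = 4) at CT5 and 508 ± 39.7 at CT17 (exact JTK_cycle p = 0.0358). *Znrf3*, which shares the role of *Rnf43*, gave an exact JTK_cycle p of 1 in both genotypes, and *Sox9* 0.273 and 0.776. *Ephb2* (exact JTK_cycle p = 0.0681 in controls and 0.368 in *Bmal1* IEC-/- mice) and *Ascl2* (0.142 and 0.112) did not pass either. With p-values adjusted across all genes with a count as well, *Smoc2*, *Axin2* and *Nkd1* kept a q under 0.05 in control mice (0.0235, 0.0276 and 0.0276). *Lgr5* had a q of 0.0699 there, and of 0.0327 across the genes kept by the low-count filter. In *Bmal1* IEC-/- mice the smallest q across all genes with a count was 0.290. The 6 proliferation markers moved with time in control mice too, from a summed mean of 2440 ± 624 (SD, n = 4) at CT1 to 971 ± 42.3 at CT13, and from 2214 ± 371 (SD, n = 2) to 1309 ± 114 (n = 4) at the same times in *Bmal1* IEC-/- mice. Their part in the rhythms of the 10 genes was not tested.

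**Figure D5:**
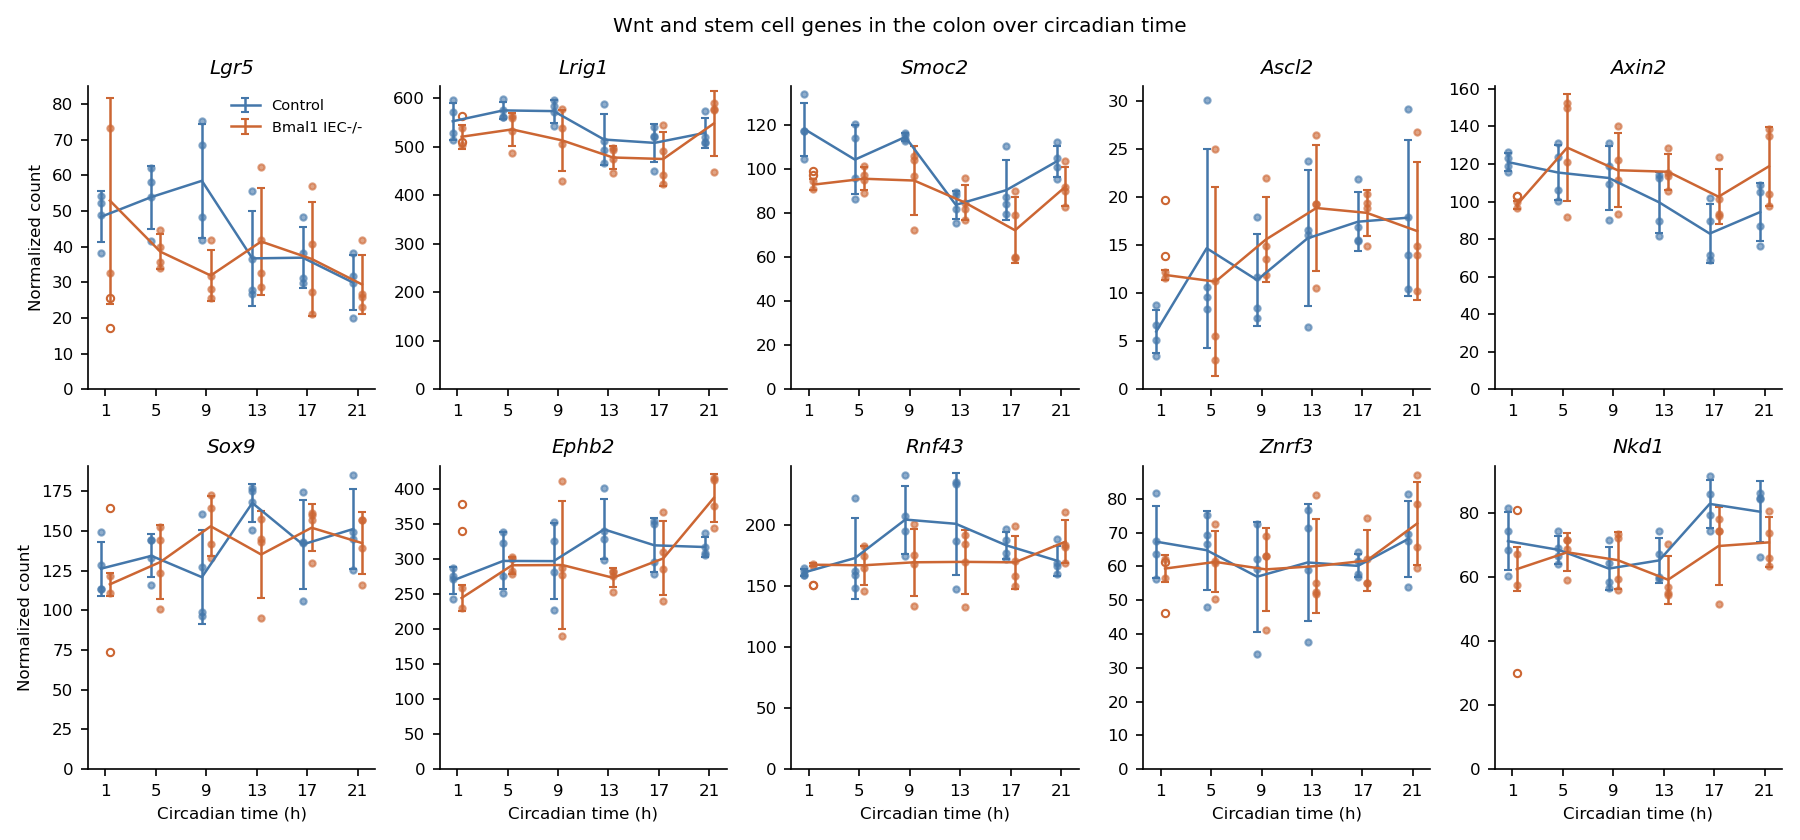
Normalized counts of the 10 genes against circadian time in h, 1 filled point per mouse in the 46 and open points for the *Bmal1* IEC-/- pair at CT1 outside them, with lines through the group means ± SD (blue control, orange *Bmal1* IEC-/-). Control *Lgr5* peaks at CT9 and control *Nkd1* is highest at CT17, while the *Bmal1* IEC-/- means of *Rnf43* over the 46 mice stay between 167 and 186.

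Day (CT1, CT5 and CT9) was then set against night (CT13, CT17 and CT21). In control mice 6 of 10 genes differed by edgeR, where 39.3% of all genes did. *Lgr5* was lower at night (night minus day -0.64 on the log2 scale, standard error 0.16, edgeR adjusted p = 0.00161), as were *Axin2* (-0.33, standard error 0.09, edgeR adjusted p = 0.00347), *Smoc2* (-0.28, standard error 0.08, edgeR adjusted p = 0.00364) and *Lrig1* (-0.13, standard error 0.05, edgeR adjusted p = 0.0345). *Ascl2* and *Sox9* were higher at night, by 0.65 (standard error 0.25, edgeR adjusted p = 0.0356) and 0.27 (0.09, edgeR adjusted p = 0.0168). In *Bmal1* IEC-/- mice 0 of 10 passed by edgeR (15.3% of all genes), with 1 at an unadjusted p under 0.05. That gene was *Smoc2* (-0.19, standard error 0.08, edgeR adjusted p = 0.105). The interaction of genotype and period, which tests this contrast directly, passed for 0 of 10 genes by edgeR (0.0691% of all genes), with 1 at an unadjusted p under 0.05. It was *Lgr5*, whose night minus day difference was -0.64 in controls and -0.11 in *Bmal1* IEC-/- mice, an interaction of 0.52 (standard error 0.24, edgeR adjusted p = 0.507). Shares of all genes by unadjusted p were not counted for night against day or for the interaction.

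The 10 genes did not share one course. Over the 12 group means of genotype and time, on the log2 scale, *Lgr5* had a Pearson r of 0.44 with *Smoc2* and 0.43 with *Lrig1*, and of -0.76 with *Sox9*, -0.63 with *Ephb2* and -0.54 with *Ascl2*. *Axin2* had its highest r of 0.35 with *Lrig1* and its lowest of -0.52 with *Nkd1*. The other genes most like *Lgr5* in this measure were *Ly96* (0.92), *Cd244a* (0.92) and *Tet2* (0.92), and those most like *Axin2* were *Toe1* (0.90), *1700086O06Rik* (0.90) and *Gstm7* (0.89). These values describe 12 points whose genes come from the same libraries, with 2 mice behind the CT1 point of *Bmal1* IEC-/- mice, and the top genes are the highest of 14475.

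Promoter sequence is shown for *Axin2*, the standard readout of the pathway and one of the genes with a rhythm in control mice. The RefSeq promoter table (GRCm38.p6) held 7 windows for 6 of the genes (*Axin2*, *Ascl2*, *Ephb2*, *Rnf43*, *Lrig1* and *Nkd1*), each with 250 bases before and 50 after a start site; *Lgr5*, *Smoc2*, *Sox9* and *Znrf3* have no entry. The 250 bases before the start of *Axin2*, chr11:108920099-108920348 on the plus strand, hold 24 CG pairs, printed in capitals, where the median of 32851 windows is 6.
Axin2: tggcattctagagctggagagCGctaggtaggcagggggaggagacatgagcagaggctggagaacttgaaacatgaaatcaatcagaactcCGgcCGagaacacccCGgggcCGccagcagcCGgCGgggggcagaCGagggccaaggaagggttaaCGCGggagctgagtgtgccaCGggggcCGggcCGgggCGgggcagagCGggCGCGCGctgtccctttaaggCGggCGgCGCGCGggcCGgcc
Searched on both strands, none of the 7 windows held the E-box CACGTG bound by BMAL1 and its partner CLOCK (7.15% of all windows do), the TCF/LEF core CTTTGAT (3.73%) or the ROR element (0.384%). A window without a match says only that these letters are absent from it. *Lrig1* had 26 CG pairs in its 250 upstream bases, *Ephb2* 20, *Ascl2* 19 and *Nkd1* 6, while the windows of *Rnf43* had 8 and 2.

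A few exon bases are shared with genes on the other strand for *Axin2* (3.796%, with *Gm11670*) and *Lrig1* (2.58%, with *Slc25a26*), and reads that overlapped several features were not counted. The other 8 genes share no exon bases with a neighbour.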

How the data were processed

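Colon RNA was prepared as stranded mRNA libraries and sequenced by the authors. Per the submitters' processing notes and the study's methods, reads were trimmed with Trimmomatic 0.39, aligned to the mouse mm10 genome with STAR 2.7.5c, and counted on exons with featureCounts 1.4.6 where the mapping quality was at least 4 and the read overlapped a single feature; whether strand was used is not given in the sources used here. The deposited values are raw read counts per gene from the authors, whole numbers without normalization. Groups come from the sample titles. Symbols, positions and exon lengths are from GENCODE vM21 (GRCm38), and 54349 of 55401 identifiers had a symbol.

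Of 48 mice, 46 entered the main fits. The pair left out, *Bmal1* IEC-/- mice SV384 and SV385 at CT1, is named by no source; that the study left it out was inferred from the mean normalized counts it gives per gene, and results were recomputed with it. Genes kept by filterByExpr (14475) were tested with edgeR 4.0.16 (TMM, quasi-likelihood F test, Benjamini-Hochberg adjustment over all kept genes, threshold 0.05) for genotype with circadian time as a factor, for each time, for a change of cosine and sine terms, and for genotype by period. For rhythms, JTK_cycle was rewritten (24 h period, 12 phases at 2 h spacing, exact null, p adjusted for the phases) and run on counts scaled by size factors from DESeq2 1.42.0, over 32471 genes with at least 1 count. Printed levels use size factors fitted to all 48 mice. Fold changes are *Bmal1* IEC-/- over control. The software was R 4.3.3 and Python 3.11.15 with scipy 1.17.1, numpy 2.4.6, matplotlib 3.10.9 and pandas 2.3.3; tests were checked on simulated counts.

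The 10 genes, the pathway and marker lists and the tests were chosen with earlier results of these data known. Other pathway genes are named where the adjusted p was under 0.05, or where they are R-spondins, Wnt secretion genes or LGR receptors that passed the filter. The 3 other genes most like *Lgr5* and *Axin2* are those with the highest Pearson r of log2 group means. The alternatives were all 48 mice, other normalizations, tests, filters and thresholds, scaling to epithelial markers, and leaving out each mouse. Scaling to fibroblast markers, and scaling rhythms to epithelial markers, were chosen after seeing the data. Totals of 3144997 to 4785844 counts per mouse limit the precision of *Ascl2* and *Lgr5* most, and a count of 0 would allow up to 3, covering counting error only. No sequencing batch is given in the labels.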

Additional observations from a re-analysis of the deposited data

Results flagged for a closer look

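In 7 of 120 sets of 4 mice of the same gene, genotype and circadian time, 1 mouse stood apart from the other 3 by Dixon's test at its 95% critical value, and chance gives about 1 in 20, or 6. *Ascl2* in control mice at CT5 had 30.1 normalized counts in SV442 against 8.33 to 10.6 in the others. Mouse SV481, *Bmal1* IEC-/- at CT17, was low for both *Sox9* (130.04 against 157 to 161) and *Nkd1* (51.6 against 74.3 to 78.3). *Nkd1* was also apart in control mouse SV441 at CT21 (66.2 against 84.5 to 86.2) and in *Bmal1* IEC-/- mouse SV395 at CT13 (70.4 against 54.3 to 56.9). *Znrf3* in *Bmal1* IEC-/- mice at CT13 had 81.0 in SV448 against 51.9 to 55.2, and *Lrig1* at CT21 had 447 in SV445 against 576 to 590.

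*Ephb2* had every *Bmal1* IEC-/- mouse below every control mouse at CT13 and above every control mouse at CT21. The difference of means (*Bmal1* IEC-/- minus control) was -69.1 normalized counts at CT13 and 70.0 at CT21. The contrast between these times was not tested by itself. A test of genotype by circadian time over all 6 times gave an edgeR adjusted p of 0.581, and the test of a changed cosine gave 0.573. The genotypes also did not overlap for *Smoc2* at CT9. At CT1, with 2 *Bmal1* IEC-/- mice, the same held for *Axin2*, *Ascl2*, *Smoc2* and *Rnf43*. How often this occurs over all genes was not counted.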

How the results depend on the processing

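Among the 10 genes, the count with a genotype effect was 1 in the main analysis and 0 without the low-count filter, 0 with a fold change of at least 1.5 and 4 when scaled to epithelial markers; with all 48 mice, DESeq2, its size factors or no time term it was 1. Epithelial scaling moved the median of all genes to -0.0809 and called 14.6% of them. Fibroblast scaling also gave 1, but the gene was *Axin2* (adjusted p = 7.32e-04) in place of *Smoc2* (0.626). The cause of these changes was not tested, except that an added fold threshold can only remove genes. *Smoc2* had an adjusted p of 0.00438 to 0.0199 with each mouse left out and 3.67e-04 to 0.626 over the other alternatives. For the other pathway genes the count of 6 became 3 without the time term, 13 with epithelial scaling and 1 with the fold threshold, and lay between 4 and 8 with each mouse left out. Fibroblast scaling, chosen after seeing the data, turned *Sox9* to 0.14, *Ephb2* to 0.10, *Rnf43* to 0.0561, *Znrf3* to 0.15, *Lrig1* to 0.0715 and *Nkd1* to 0.0341, against a median of 0.163 over all genes. Leaving out single mice moved *Sox9* between -0.0407 and 0.0126 and *Znrf3* between -0.0369 and 0.0125, across 0.

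The 6 genes rhythmic in control mice became 3 with p-values adjusted across all genes, 4 across those kept by the filter, and 5 to 8 with a mouse left out. Epithelial scaling, chosen after seeing the data, also gave 6, with *Lgr5* (exact JTK_cycle p = 0.0583) and *Rnf43* (1) losing their calls and *Znrf3* (0.0255) and *Ephb2* (0.0497) gaining them, where 58.6% of genes kept by the filter passed. In *Bmal1* IEC-/- mice the count of 1 became 0 with p-values adjusted across all genes or across those kept by the filter, 0 with a cosine in edgeR and 2 with epithelial scaling, and lay between 0 and 2 with each mouse left out. *Smoc2* in *Bmal1* IEC-/- mice lost its call (p up to 0.1175) without SV399, SV437, SV439, SV440, SV444, SV445, SV448, SV449, SV450, SV471 or SV481. In control mice *Rnf43* lost its call (p up to 0.1088) without SV396, SV397, SV417, SV433, SV434, SV454, SV469 or SV476, and *Lrig1* (p up to 0.1267) without SV415, SV424, SV441, SV443, SV447 or SV453. *Ascl2* gained a call without SV424 (exact JTK_cycle p = 0.0234) or SV442 (0.0338) in control mice, and without SV418 (0.0460), SV439 (0.0157) or SV448 (0.0460) in *Bmal1* IEC-/- mice, and *Ephb2* in control mice (p down to 0.0234) without SV401, SV415, SV417, SV421, SV433, SV442 or SV453. *Lgr5*, *Axin2*, *Smoc2* and *Nkd1* kept their control rhythm with each mouse left out. The counts of 0 for single times, changed rhythm and interaction were 0 under every alternative run. No paired analysis was possible because each mouse carries its own number.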
